A study of Mus musculus with 15 samples.

Results

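Skint1 to Skint10 were compared across 5 groups of mouse skin in a model of actinic keratosis, the sun-induced keratinocyte lesion that can precede squamous cell carcinoma. All 10 genes carrying these symbols were taken, out of 24027 symbols in the deposited tables, and every one of them had a fold change in each table. The family was chosen by its log2 fold changes in these same tables, which were known beforehand, so their values are a description, and the p-values and counts given for them are not independent evidence of a difference. In placebo-treated lesions all 10 stood at their lowest level of the 5 groups. Skint7, Skint5 and Skint6 stood there at 3.24%, 4.54% and 6.44% of their level in skin labelled as not exposed to ultraviolet light, while the other 7 stood between 21.8% and 66.5%.

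The mice were female SKH1, a hairless but otherwise immunocompetent strain used for ultraviolet carcinogenesis, aged 6 to 8 weeks. Ultraviolet B was given at 500 J/m2 on 5 days per week for 10 weeks. A cream of 0.25 g was applied on 5 days per week, either placebo or one holding GZ21T, the agent under study. The 5 groups of 3 total RNA libraries were, for placebo mice, skin labelled as not exposed to ultraviolet light (here unexposed skin), non-lesional skin, perilesional skin and lesional skin, and, for GZ21T mice, lesional skin. The labels give cream and irradiation for the mice and do not say where on the body they were applied, so whether the unexposed skin itself bore placebo cream is not stated. The headers of the deposited tables name a control back group, which was taken as the unexposed group by elimination. If that holds, body site and exposure cannot be told apart in any comparison with it. The placebo libraries carry the numbers 1 to 3 at each of the 4 sites, and these sites may come from the same mice. The labels do not say so, and all SEs and p-values derived here treat the groups as unpaired. Nor do they say outright that each library of a group is a separate animal, so the p-values measure a spread between libraries that may be partly technical. No values per library were at hand: the spread within a group enters only through the standard error (SE) of each fold change, and the depth of the libraries is unknown. The samples were bulk skin, in which fewer cells of a type and less RNA per cell cannot be told apart.

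The Skint genes (selection and upkeep of intraepithelial T cells) encode membrane proteins with immunoglobulin-like domains, related to butyrophilins, and are transcribed mainly in skin keratinocytes and thymic epithelium of the mouse. Skint1, the founding member, is needed in the thymus for the development of the dendritic epidermal T cells, the gamma-delta T cells that live between mouse keratinocytes and survey them for stress. Skint2, also known as B7S3, has been described as an inhibitor of T cell activation in mice, and the roles of most other members are less well known.

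The 10 genes lie in one block of 2.08 Mb on chromosome 4 of GRCm38 (chr4:111919392-113999503), 6 on the plus strand and 4 on the minus strand. From the low to the high coordinate they run Skint8, Skint7, Skint1, Skint4, Skint3, Skint9, Skint2, Skint10, Skint6 and Skint5. Skint7 occupies chr4:111972923-111988223 on the plus strand, Skint6 chr4:112804616-113286973 on the minus strand and Skint5 chr4:113477891-113999503 on the minus strand, so the 3 genes that stood lowest in lesions are not all side by side. The windows around their start sites, from 250 bases before to 50 bases after the start in the RefSeq table for GRCm38.p6, are printed because these genes carry the largest differences. The windows of Skint5 (chr4:113999454-113999753, minus strand) and Skint6 (chr4:113286924-113287223, minus strand) are identical at 269 of 300 positions, or 89.7%, compared without gaps. Capitals mark AGTACTTGAGTAAT, a run of 14 bases that both hold.
Skint5: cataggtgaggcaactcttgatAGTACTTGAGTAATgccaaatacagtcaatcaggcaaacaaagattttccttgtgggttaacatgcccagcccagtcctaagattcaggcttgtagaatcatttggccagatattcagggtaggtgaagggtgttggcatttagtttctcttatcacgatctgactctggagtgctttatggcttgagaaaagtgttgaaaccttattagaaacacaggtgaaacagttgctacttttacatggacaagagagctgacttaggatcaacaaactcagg
Skint6: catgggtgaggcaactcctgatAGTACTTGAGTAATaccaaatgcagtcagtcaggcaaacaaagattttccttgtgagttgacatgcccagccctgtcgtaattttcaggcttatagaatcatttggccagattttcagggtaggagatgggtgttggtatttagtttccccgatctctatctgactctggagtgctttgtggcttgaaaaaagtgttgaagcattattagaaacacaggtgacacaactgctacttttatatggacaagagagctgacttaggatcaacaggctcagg

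The same 14 bases stand, again in capitals, in the windows of Skint1 (chr4:112006019-112006318, plus strand) and Skint3 (chr4:112231995-112232294, plus strand), shown as members whose values in lesions were less low, and in the window of one of the annotated starts of Skint4. They occur, searched on both strands, in 5 of 32851 windows in the table (0.0152%), all of them Skint windows. The run was picked as the longest one common to these 5 windows, so its presence in them was fixed beforehand. Members with this run stood both among the lowest and among the less low, and the run does not mark out the genes with the largest differences.
Skint1: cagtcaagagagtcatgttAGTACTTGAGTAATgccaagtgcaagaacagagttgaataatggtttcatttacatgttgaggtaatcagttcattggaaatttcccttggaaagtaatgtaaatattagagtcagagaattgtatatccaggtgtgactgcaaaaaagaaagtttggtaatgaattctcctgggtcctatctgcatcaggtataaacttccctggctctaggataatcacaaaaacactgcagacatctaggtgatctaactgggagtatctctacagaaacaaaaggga
Skint3: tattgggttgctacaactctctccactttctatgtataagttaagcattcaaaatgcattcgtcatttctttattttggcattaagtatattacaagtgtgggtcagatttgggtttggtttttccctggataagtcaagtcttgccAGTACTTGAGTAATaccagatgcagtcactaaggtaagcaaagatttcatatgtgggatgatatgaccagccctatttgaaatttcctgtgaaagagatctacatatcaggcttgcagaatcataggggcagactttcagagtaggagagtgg

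The window of Skint7 (chr4:111972677-111972976, plus strand) shares instead a run of 51 bases, in capitals, with that of its neighbour Skint8 (chr4:111919305-111919604, plus strand). It starts 52 bases before the start site of Skint7 and 230 bases before that of Skint8, and it occurs in 2 of the 32851 windows (0.00609%). It was likewise picked as the longest run common to these 2 windows. These neighbours share the run but differed in size of change, as given with the values of each gene in lesions.
Skint7: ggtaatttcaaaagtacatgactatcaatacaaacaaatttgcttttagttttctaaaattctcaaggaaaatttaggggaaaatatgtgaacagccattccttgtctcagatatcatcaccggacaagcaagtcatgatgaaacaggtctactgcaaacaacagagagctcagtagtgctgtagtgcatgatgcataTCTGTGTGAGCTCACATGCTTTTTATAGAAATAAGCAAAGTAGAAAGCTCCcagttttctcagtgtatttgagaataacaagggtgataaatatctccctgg
Skint8: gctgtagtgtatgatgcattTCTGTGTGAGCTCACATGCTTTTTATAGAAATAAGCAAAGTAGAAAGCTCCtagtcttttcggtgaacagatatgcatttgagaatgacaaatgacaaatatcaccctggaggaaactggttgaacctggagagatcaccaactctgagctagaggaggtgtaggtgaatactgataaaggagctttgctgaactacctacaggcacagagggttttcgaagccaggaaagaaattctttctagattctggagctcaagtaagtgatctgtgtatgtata

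The AP-1 motif, searched as TGANTCA, was in the windows of 0 of 10 members and in 7.81% of all windows. The letters TATAAA, searched on both strands like every motif here and present on the opposite strand within the 51-base run of Skint7 and Skint8, were in windows of 7 of 10 members and in 13.6% of all windows. These matches describe letters in a window and say nothing of binding.

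Placebo lesions were set against unexposed skin of placebo mice. Skint7, Skint5 and Skint6 had log2 fold changes of -4.95 ± 0.62 (SE), -4.46 ± 0.77 and -3.96 ± 0.60 in the authors' deposited table, with adjusted p of 2.08e-12, 1.63e-06 and 1.81e-08 from the DESeq2 Wald test with Benjamini-Hochberg adjustment. They were 30.8-fold, 22.0-fold and 15.5-fold lower in lesions, the 9th, 14th and 27th lowest fold changes of 15201 genes tested in the authors' deposited table. Their estimates were the lowest of the family, although the 95% interval of Skint6, -5.13 to -2.78, overlapped that of Skint9, -3.21 to -1.18. Differences between members were not tested.

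A middle group was formed by Skint9, Skint10 and Skint8. Their log2 fold changes in lesions over unexposed skin were -2.20 ± 0.52, -2.11 ± 0.54 and -2.09 ± 0.54 in the authors' deposited table, or 4.58-fold, 4.32-fold and 4.27-fold lower, with DESeq2 adjusted p of 0.000717, 0.00214 and 0.00192. Skint3 and Skint1, the member needed for epidermal T cells, had smaller ones in the authors' deposited table, -1.36 ± 0.32 and -1.14 ± 0.31, or 2.56-fold and 2.20-fold lower, with DESeq2 adjusted p of 0.000745 and 0.00435. Skint4 at -1.08 ± 0.46 and Skint2 at -0.59 ± 0.63 did not pass the DESeq2 test in the authors' deposited table, with adjusted p of 0.0791 and 0.552.

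In all, 8 of 10 members were called lower and 0 higher at adjusted p under 0.05 in this comparison, in which 8.17% of all genes tested were called lower (18.3% were called in either direction). The median log2 fold change over the 10 members was -2.10, beside 0.08 over all genes tested. When the spread of the Wald statistic over all genes is taken as that of no change, 1 member is called. The remaining family gene next to the block, Skint11, fell too, by 1.30 ± 0.44 on the log2 scale in the authors' deposited table (DESeq2 adjusted p 0.0224).

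**Figure D1:**
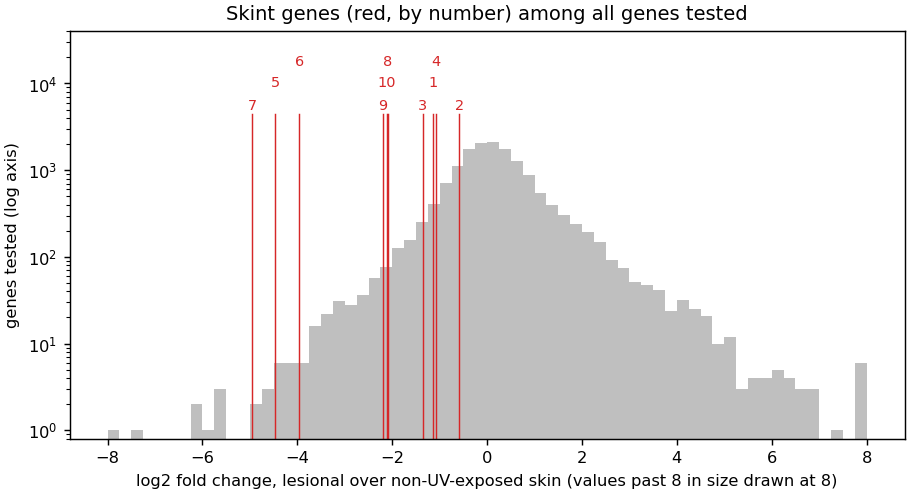
Histogram of log2 fold changes of lesional over unexposed placebo skin for the 15201 genes tested, with a log axis for the number of genes; red lines mark the 10 Skint genes by number. Skint5, Skint6 and Skint7 lie between -4.95 and -3.96, in the thin lower tail, and the other 7 lie between -2.20 and -0.59.

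The difference was split into steps between skin sites, from unexposed to non-lesional, perilesional and lesional skin. These are sites, not times. Non-lesional skin against unexposed skin, the first step, held part of the estimated difference of the 3 lowest genes. Log2 fold changes in the authors' deposited table were -2.33 ± 0.76 for Skint5, -1.88 ± 0.60 for Skint7 and -1.65 ± 0.59 for Skint6, with DESeq2 adjusted p of 0.0995, 0.0795 and 0.168. The other 7 ran from -0.77 ± 0.53 for Skint10 to 0.45 ± 0.61 for Skint2 in the authors' deposited table, with adjusted p of at least 0.729. At adjusted p under 0.05, 0 of 10 members were called by DESeq2, where 1.66% of all genes tested were, and 3 members, Skint5 to Skint7, had an unadjusted p under 0.05, as did 10% of all genes tested. Their levels stood at 19.8% (Skint5), 31.9% (Skint6) and 27.1% (Skint7) of unexposed skin, against 58.6% to 137% for the other members.

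At the next step, perilesional over non-lesional skin, the same 3 genes again had the lowest values. Skint7 stood at -2.14 ± 0.61, Skint5 at -1.68 ± 0.77 and Skint6 at -1.52 ± 0.60 in the authors' deposited table, with DESeq2 adjusted p of 0.158, 0.579 and 0.445. Skint9 followed at -0.90 ± 0.51, and Skint2 at 0.44 ± 0.57 was the 1 member above 0 in the authors' deposited table. Here 0 of 10 members were called by DESeq2, beside 0.112% of all genes tested, and 3 had an unadjusted p under 0.05, as did 7.83% of all genes. The comparisons of these steps share the non-lesional libraries, so a value that is high there lowers one and raises the other.

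The last step, lesional over perilesional skin, is not among the deposited tables and was derived from 3 of them. All 10 members were below 0, from -1.48 ± 0.59 for Skint2 to -0.37 ± 0.31 for Skint1, with a median of -0.82 beside 0.05 over all genes tested. Of the members, 0 of 10 passed at adjusted p under 0.05 by the normal-tail test on the DESeq2 estimates, beside 0.482% of all genes, and 2 had an unadjusted p under 0.05, as did 9.48% of all genes. Skint3 had the smallest adjusted p, 0.184, at -0.95 ± 0.32.

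The estimates place the difference at different steps for different members. For Skint5, Skint6 and Skint7 the last step made up 9.99%, 20.1% and 18.7% of the whole log2 difference between lesional and unexposed skin. For Skint3 and Skint4 it made up 70.2% and 77.6%, and for Skint1 and Skint8 32.9% and 47.0%. The last step itself was of like size, with a median log2 fold change of -0.79 for Skint5 to Skint7 and -0.84 for the other 7. The smaller shares of Skint5 to Skint7 go with their larger whole difference. Skint2 stood above its unexposed level in non-lesional and perilesional skin, at 137% and 185%, and at 66.5% in lesions. For 7 of 10 members the estimate was lower at every site than at the one before. These shares are ratios of estimates that did not pass the test step by step, and the differences between members were not tested.

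**Figure D2:**
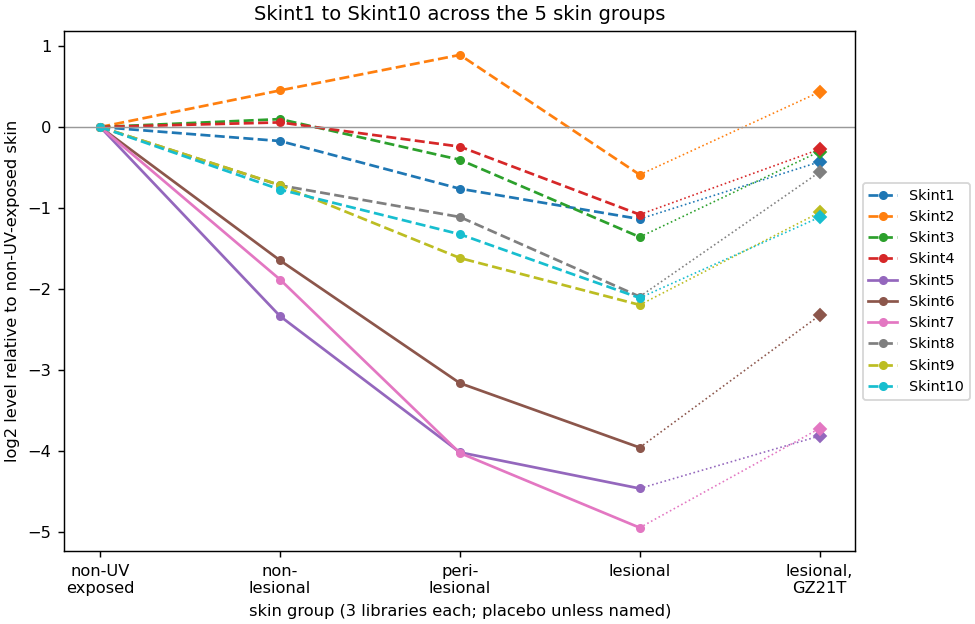
Log2 level of each Skint gene in the 5 groups relative to unexposed placebo skin, summed from the deposited fold changes; lines join the placebo groups and diamonds are GZ21T lesions. Placebo lesions are the lowest point for all 10 genes, and Skint5, Skint6 and Skint7 are the lowest 3 in each of the other 4 groups, down to -4.95 for Skint7.

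Perilesional skin against unexposed skin joins the first and the second step and was derived from their tables. Skint7 stood at -4.02 with an SE of at most 0.85 and an adjusted p of 0.0026, Skint5 at -4.02 with an SE of at most 1.09 and an adjusted p of 0.0431, and Skint6 at -3.16 with an SE of at most 0.84 and an adjusted p of 0.0381. These 3 members were called lower, 16.3-fold, 16.2-fold and 8.95-fold, in a comparison in which 0.135% of all genes tested were called lower (0.538% in either direction). The other 7 lay between -1.62 and 0.89 and did not pass. Lesional over non-lesional skin, joined in the same way, gave values from -3.06 to -0.96 with 0 of 10 members and 0 of 17121 genes called by the normal-tail test on the DESeq2 estimates, and 5 members had an unadjusted p under 0.05, as did 6.23% of all genes. The SE of these joined comparisons is an upper bound, since the shared libraries cannot be resolved from the tables.

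GZ21T lesions were set against placebo lesions, which asks whether GZ21T-treated lesions differ in these genes. All 10 members were above 0, with a median log2 fold change of 1.04 beside -0.06 over all genes tested. Skint3 rose by 1.06 ± 0.32 in the authors' deposited table, or 2.08-fold, with a DESeq2 adjusted p of 0.0414. It was the 1 member called among the 9 tested, in a comparison in which 1.31% of all genes tested were called higher (3.61% in either direction), and 5 of 10 members had an unadjusted p under 0.05, as did 22.9% of all genes tested. That call is lost when p-values are adjusted over every gene with a p-value.

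Larger estimates with larger errors belonged to Skint6 and Skint8. Skint6 stood at 1.63 ± 0.60 and Skint8 at 1.54 ± 0.54 in the authors' deposited table, with DESeq2 adjusted p of 0.0853 and 0.0721. Skint7 stood at 1.22 ± 0.64, Skint9 at 1.14 ± 0.53, Skint10 at 1.00 ± 0.55, Skint4 at 0.81 ± 0.46 and Skint1 at 0.71 ± 0.31 in the authors' deposited table, with DESeq2 adjusted p between 0.151 and 0.278. Skint5 had the smallest value, 0.65 ± 0.78, with a DESeq2 adjusted p of 0.665 in the authors' deposited table. Skint2 stood at 1.02 ± 0.62 in the authors' deposited table and was left without an adjusted p there. Skint11 stood at 0.59 ± 0.44, with a DESeq2 adjusted p of 0.433 in the authors' deposited table. This comparison and that of lesions with unexposed skin share the placebo lesional libraries, so opposite signs in them arise in part from the same values.

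**Figure D3:**
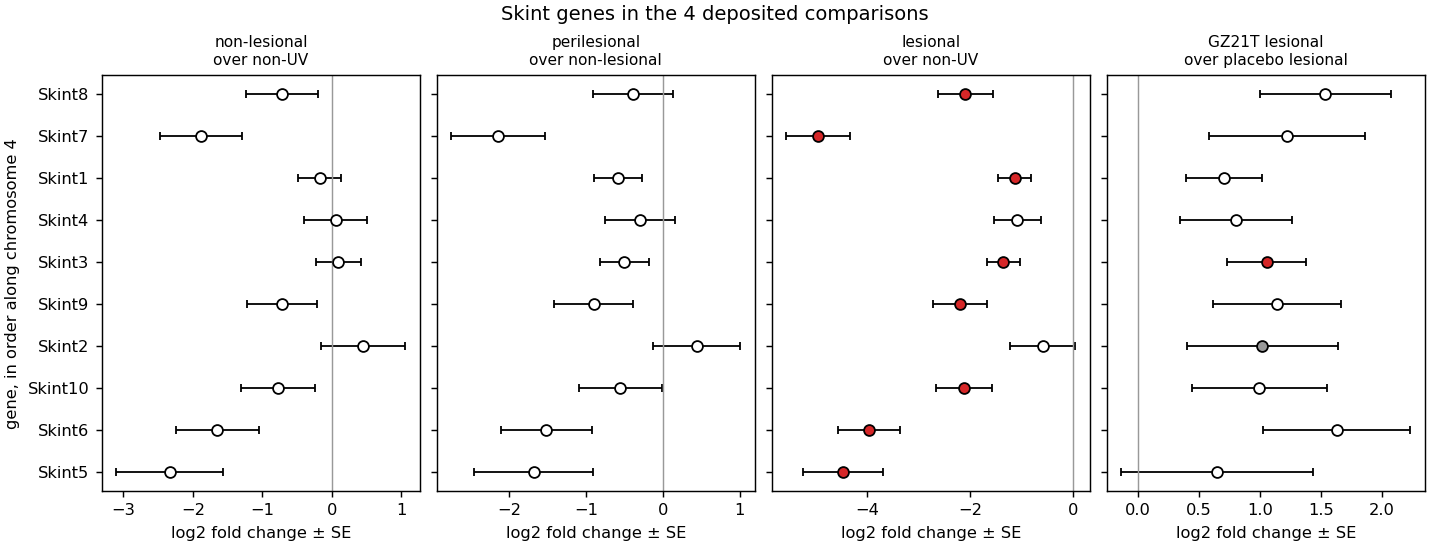
Log2 fold changes of the 10 Skint genes in the 4 deposited comparisons, each point with bars of 1 SE, genes in their order along chromosome 4; red points have a DESeq2 adjusted p under 0.05 and grey points none. In lesional over unexposed skin 8 members are red, all below 0, and in GZ21T over placebo lesions Skint3 is the 1 red point, at 1.06.

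Set beside skin without lesions, GZ21T lesions had low estimates for part of the family. Against non-lesional placebo skin, derived from 3 tables, members ran from -1.84 ± 0.62 for Skint7 and -1.48 ± 0.78 for Skint5 to 0.16 for Skint8, with a median of -0.34 beside 0.03 over all genes tested. Here 0 of 10 members and 0 of 16814 genes were called by the normal-tail test on the DESeq2 estimates, and 1 member had an unadjusted p under 0.05, as did 3.03% of all genes. Against unexposed skin Skint7 stood at -3.72 with an SE of at most 0.89 and was called lower, with an adjusted p of 0.0136, in a comparison in which 0.0457% of all genes tested were called lower (0.285% in either direction). Skint5 at -3.81 with an SE of at most 1.10 and Skint6 at -2.33 with an SE of at most 0.85 did not pass, with adjusted p of 0.101 and 0.429. The other 7 lay between -1.11 and 0.43.

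As levels, GZ21T lesions held Skint7 at 7.58%, Skint5 at 7.11% and Skint6 at 19.9% of unexposed skin, against 6.15%, 6.18% and 11.2% in perilesional placebo skin. For Skint1, Skint3 and Skint8 the level was 74.2%, 81.1% and 68.0% in GZ21T lesions, against 45.5%, 39.0% and 23.4% in placebo lesions. Skint9 and Skint10 stood lower in GZ21T lesions, at 48.1% and 46.2%, against 21.8% and 23.2% in placebo lesions. Skint4 and Skint2 stood at 82.6% and 135%, against 47.3% and 66.5%. In 8 of 10 members the estimate for GZ21T lesions lay above that for perilesional placebo skin, the exceptions being Skint2 and Skint4. The difference between these groups was not tested, and some gaps were small beside the error. Skint5, for example, stood at -3.81 in GZ21T lesions and -4.02 in perilesional skin on the log2 scale, with SEs of at most 1.10 and 1.09.

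**Figure D4:**
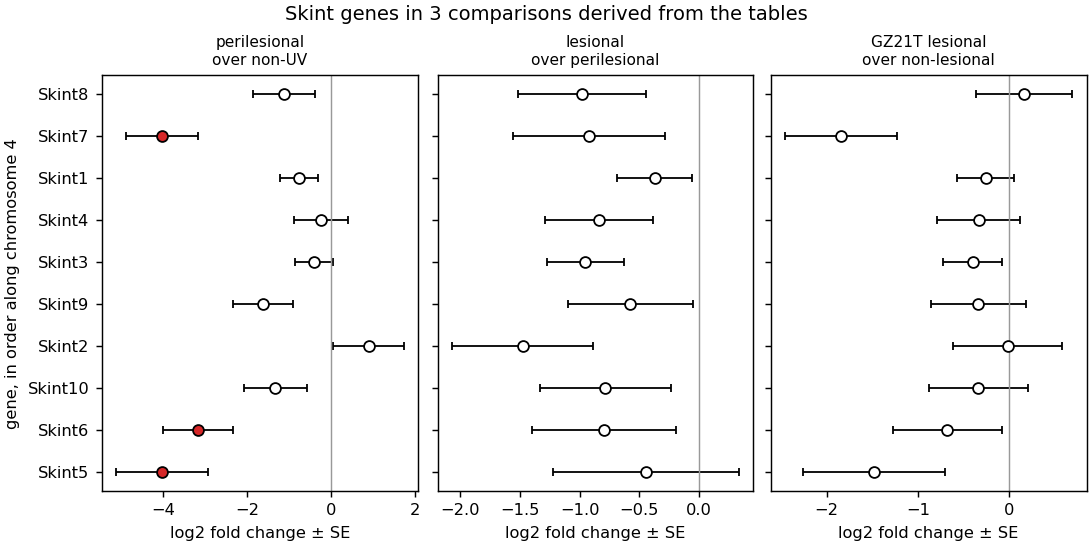
Log2 fold changes of the 10 Skint genes in 3 of the comparisons derived from the deposited tables, with bars of 1 SE or, for perilesional over unexposed skin, of its upper bound; red points have an adjusted p under 0.05. In lesional over perilesional skin all 10 points lie between -1.48 and -0.37, and in perilesional over unexposed skin Skint5, Skint6 and Skint7 are red, at -4.02, -3.16 and -4.02.

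Other keratinocyte genes were read beside the family. Of 14 suprabasal and cornifying genes, which build the upper epidermis, 10 were below 0 and 4 above in lesions over unexposed skin, with a median of -0.57. Of them 5 were called lower and 1 higher, in a comparison in which 8.17% of all genes tested were called lower and 10.2% higher. Krt77, a suprabasal keratin, fell by 7.49 ± 1.10 on the log2 scale in the authors' deposited table (DESeq2 adjusted p 5.5e-09), and Flg2, a filaggrin relative, by 2.92 ± 0.58 in the authors' deposited table (DESeq2 adjusted p 3.6e-05). Krt77 stood at 11.9%, 1.60%, 0.557% and 1.59% of its unexposed level in non-lesional, perilesional, placebo lesional and GZ21T lesional skin. In GZ21T over placebo lesions 13 of the 14 were above 0 and 1 below, with a median of 1.11. Called higher were 4, beside 1.31% of all genes tested: Lor, the cornified envelope protein loricrin, Krt1, Sbsn and the desmosomal Dsg1a. Called lower were 0. Step by step, 9 of the 14 were above 0 and 5 below in non-lesional over unexposed skin, with a median of 0.39 beside -0.72 for the 10 Skint genes. Here 3 of the 14 were called higher and 0 lower, beside 1.66% of all genes called in either direction. In perilesional over non-lesional skin 11 of 14 were below 0, with a median of -0.34 beside -0.57, and in lesional over perilesional skin 13 of 14 were below 0, with a median of -0.78 beside -0.82. By DESeq2 in the former and the normal-tail test in the latter, 0 of the 14 were called, beside 0.112% and 0.482% of all genes tested. All 6 stress keratins and alarmins rose in lesions over unexposed skin, with a median of 4.56. In GZ21T over placebo lesions 5 of the 6 were below 0 and 1 above, with a median of -0.63. Of them 0 were called there, beside 3.61% of all genes tested. The alarmins S100a8 and S100a9 stood at -3.19 ± 1.37 and -3.15 ± 1.22 in the authors' deposited table (DESeq2 adjusted p 0.139 and 0.0987). Of 8 basal genes 1 was called higher and 3 lower in lesions over unexposed skin, with a median of -0.15.

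Hair follicle genes had the signs of the family in some comparisons. All 10 of them were below 0 in lesions over unexposed skin, with a median of -2.23. Of these, 2 were called lower, beside 8.17% of all genes tested. The 6 tested in GZ21T over placebo lesions were above 0, with a median of 1.87 and 0 called, beside 3.61% of all genes tested. All 10 were below 0 in non-lesional over unexposed skin, with a median of -1.41 and 0 called, beside 1.66% of all genes tested. All 10 were also below 0 in perilesional over non-lesional skin, with a median of -4.20. There 1 was called lower, beside 0.112% of all genes called in either direction. In perilesional over unexposed skin, where Skint5 to Skint7 were called lower, the follicle genes had a median of -5.32. Of them 2 were called lower, beside 0.135% of all genes tested. In lesional over perilesional skin all 10 follicle genes were above 0, with a median of 3.15, while all 10 Skint genes were below 0. Of the follicle genes 0 were called there, beside 0.482% of all genes tested. The summed level of these lists in each library cannot be given from fold changes, and their part in the Skint values was not tested.

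The cells that Skint1 serves were read through a list of epidermal gamma-delta T cell genes, of which 13 of 17 were in the tables. The gamma-delta receptor genes Trdc, Tcrg-C1, Tcrg-V5 and Trdv4, which define these cells, were not analysed here. Of 12 tested in lesions over unexposed skin, 6 were above 0 and 6 below, with a median of -0.08. Of these, 3 were called lower and 0 higher, beside 8.17% and 10.2% of all genes tested. Those called lower were the T cell receptor subunits Cd3e and Cd3g, by 1.48 ± 0.44 and 1.52 ± 0.43 on the log2 scale, and Cd7, by 2.32 ± 0.73, in the authors' deposited table (DESeq2 adjusted p 0.0086, 0.0063 and 0.014). The subunits are shared with other T cells, of which Cd8a rose by 2.66 ± 0.69 and the regulatory T cell factor Foxp3 by 3.29 ± 1.00 in the authors' deposited table (DESeq2 adjusted p 0.0025 and 0.011). In perilesional over non-lesional skin 9 of 10 Skint genes were below 0. There all 12 epidermal T cell genes tested were above 0, with a median of 0.62. Of these 12, 0 were called, beside 0.112% of all genes tested. In lesional over perilesional skin 11 of 13 epidermal T cell genes were below 0, with a median of -0.76 beside -0.82 for the Skint genes. Of these 13, 0 were called, beside 0.482% of all genes tested. Under GZ21T the 4 genes with an adjusted p had a median of 0.45. Of these 4, 0 were called, beside 3.61% of all genes tested. At shares this low, a count of 0 in so short a list does not set these genes apart.

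Of 8 tested keratinocyte ligands of epidermal T cell receptors, 1 was called higher in lesions over unexposed skin. This was Ulbp1, a ligand of the NKG2D receptor, higher by 1.70 ± 0.58 on the log2 scale in the authors' deposited table (DESeq2 adjusted p 0.025). Of 6 tested factors that epidermal T cells make, 1 was called higher, the growth factor Areg, by 1.98 ± 0.56 in the authors' deposited table (DESeq2 adjusted p 0.0056). Among 3 tested butyrophilin-like genes outside the 10, Skint11 was the 1 called. Of all genes tested in this comparison 10.2% were called higher and 8.17% lower. The counts of 1 of 8 ligands and 1 of 6 factors are near the share called higher. Skint11 was called lower, and a list of 3 genes is too short to set against a share.

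**Figure D5:**
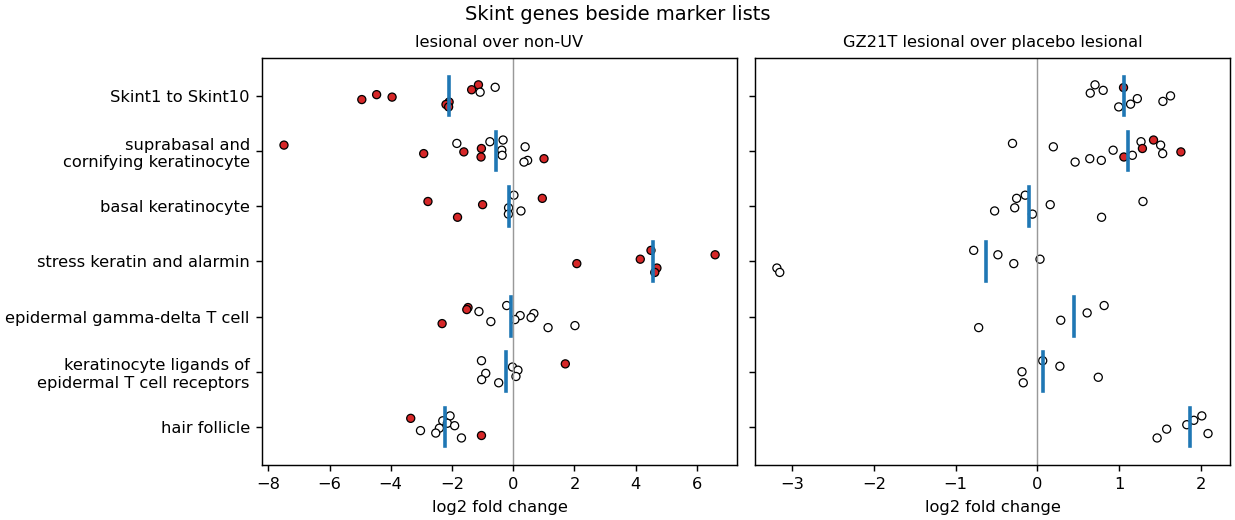
Log2 fold changes of the Skint genes and of 6 other gene lists, one point per gene tested (red: DESeq2 adjusted p under 0.05), with blue bars at the medians. In lesional over unexposed skin the Skint median of -2.10 stands beside -2.23 for hair follicle genes, -0.57 for suprabasal genes and 4.56 for stress keratins, and under GZ21T the medians over genes tested are 1.06, 1.87, 1.11 and -0.63.

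Of the genes that flank the block, Spata6, a gene of sperm, and Slc5a9, a sugar transporter, lie before it and stood at -0.25 ± 0.32 and -0.25 ± 0.34 in lesions over unexposed skin in the authors' deposited table (DESeq2 adjusted p 0.632 and 0.643). Trabd2b, a protease that acts on WNT proteins, lies beyond Skint11 and rose by 1.29 ± 0.29 in the authors' deposited table (DESeq2 adjusted p 0.000368). Agbl4 and Foxd2, the outermost of the 3 annotated genes on each side, were not tested. In this comparison 0 of the 3 neighbours outside the family that were tested were called lower by DESeq2, beside 8.17% of all genes tested. A count over 3 genes is too short to set against that share. Slc5a9 had the signs of most of the family in some other comparisons but not in all. It stood at -0.71 ± 0.33 in perilesional over non-lesional skin and 0.73 ± 0.33 in GZ21T over placebo lesions in the authors' deposited table, with DESeq2 adjusted p of 0.590 and 0.164. Skint1 stood at -0.59 ± 0.31 and 0.71 ± 0.31 in the same comparisons in the authors' deposited table. In non-lesional over unexposed skin Slc5a9 stood at 0.83 ± 0.33 in the authors' deposited table (DESeq2 adjusted p 0.267), while 7 of 10 members were below 0.

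Family members can share reads. Of 55 pairs among Skint1 to Skint11, 3 share any stretch of 50 bases between annotated transcripts: Skint5 with Skint6 (3.97% of the stretches of Skint5, 4.64% of those of Skint6), Skint7 with Skint8 (6.83% and 5.81%), and Skint2 with Skint3 (0.819% and 0.495%). Reads from these parts could have been assigned to either gene, and the values of these pairs are uncertain to that extent. No member had the same values as another gene in all tables (0 of 10).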

How the data were processed

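Total RNA libraries of skin, 15 in 5 groups of 3, were compared through 4 deposited tables. The submitters' processing notes name Trim Galore, the mouse build GRCm38 (mm10) and DESeq2. Not given in the sources used here were the aligner, counter, annotation, versions and design formula. Each table holds a log2 fold change from the authors' model, a Wald statistic, which is a score, and the p-value and adjusted p-value of the authors' test, per the file headers. Adjustment is Benjamini-Hochberg. The tables hold no counts, so depth is unknown. Dividing the log2 fold change by the Wald statistic gave the SE. A gene without an adjusted p was not tested. Calls use adjusted p under 0.05.

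One table is named for lesional and perilesional skin but its header names lesional and back skin. The header was followed: of 1195 genes at exactly 0 in perilesional over non-lesional skin, 271 were negative in it, which a perilesional reference would not allow. Back skin was taken as the unexposed group by elimination. Another table, headed placebo over GZ21T, was turned in sign where needed, so that all values read GZ21T over placebo.

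The 5 other comparisons are sums and differences of deposited log2 fold changes, assuming 1 model with group alone. For 2 of them the variance follows from the tables; for 3 it is an upper bound. Their p-values are normal tails, two-sided, adjusted over all genes. The calculation was tested on simulated data with independent groups and known variances. That covers the arithmetic, and not sites shared by a mouse or another design formula. The members and all gene lists were chosen with earlier results of these data known. The text names all members, Skint11, up to 4 called genes of a list with the smallest adjusted p, the 8 genes of nearest pattern and the 3 flanking genes on each side. Promoter windows are RefSeq's for GRCm38.p6 and held 10 of 10 members; gene coordinates are GENCODE's on GRCm38. Python 3.11.15, numpy 2.4.6, pandas 2.3.3, scipy 1.17.1 and matplotlib 3.10.9 were used.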

Additional observations from a re-analysis of the deposited data

How the results depend on the processing

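Every fold change of a member kept its sign when centred on the median of all genes tested. Counts of members called moved in 6 comparisons. With the null spread taken from all genes, 1 member was called in lesional over unexposed skin (8 as reported), 0 in GZ21T over placebo lesions (1 as reported) and 3 in GZ21T lesional over unexposed skin (1 as reported). At adjusted p under 0.1 the counts were 2 in non-lesional over unexposed skin (0 as reported) and 3 in GZ21T over placebo lesions. At adjusted p under 0.01 they were 0 in GZ21T over placebo lesions, 1 in perilesional over unexposed skin (3 as reported) and 0 in GZ21T lesional over unexposed skin. Adjustment over every gene with a p-value left 0 in GZ21T over placebo lesions. With equal variance in all groups 3 were called in lesional over non-lesional skin (0 as reported) and 3 in GZ21T lesional over unexposed skin. With the p-values adjusted only over genes tested in the tables combined as well, an alternative chosen after seeing the data, these became 4 and 3. The cause was not tested. No paired analysis was possible because the tables hold no values per library, and for the same reason no library could be left out. Depth limits cannot be given.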

Other observations

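Outside the family, the 8 genes whose 4 deposited log2 fold changes lay nearest to the median of the 9 members tested in every table, of 10899 genes so tested, were Gm14137, Ntrk2, Ago4, Dzip1, Cyp3a13, Ell3, Axin2 and Cgn. Ntrk2 is the receptor of brain-derived neurotrophic factor, Ago4 an Argonaute protein, Cyp3a13 a cytochrome P450, Axin2 an inhibitor and target of WNT signalling, and Cgn the tight junction protein cingulin. The Euclidean distance over the 4 comparisons ran from 0.230 for Gm14137 to 0.373 for Cgn. All 8 fell in lesions over unexposed skin in the authors' deposited table, by 1.86 to 2.08 on the log2 scale, and stood at 0.85 to 1.31 in GZ21T over placebo lesions, where DESeq2 adjusted p ran from 0.093 to 0.347. They were chosen for this likeness, so their values are a description. For Axin2 the log2 fold changes were -0.61, -0.75, -1.90 and 0.85 in the authors' deposited table, for non-lesional over unexposed, perilesional over non-lesional, lesional over unexposed and GZ21T over placebo lesional skin.

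Of the remaining lists, sebaceous gland genes had 3 of 8 called higher and 0 lower in lesions over unexposed skin. Langerhans cell genes had 1 of 4 called higher, beside 10.2% of all genes tested. Adipocyte genes also had 1 of 4 called higher, but 3 of 4 were below 0, with a median of -1.59. Called were 0 of 6 fibroblast, 0 of 6 skeletal muscle and 0 of 5 macrophage genes, beside 18.3% of all genes tested. All 6 skeletal muscle genes were above 0 there, with a median of 2.05. They were also above 0 in non-lesional, perilesional and GZ21T lesional over unexposed skin, with medians of 1.83, 2.39 and 2.19. Their part in the Skint values was not tested. In GZ21T over placebo lesions 0 genes of these lists were called, beside 3.61% of all genes tested.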
